A study of Caenorhabditis elegans with 29 samples.

Results

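In meiotic prophase each chromosome finds its partner through a pairing centre near one of its ends, and 8 genes of this machinery were followed here in Caenorhabditis elegans gonads. They are him-8, zim-1, zim-2, zim-3, chk-2, plk-2, sun-1 and zyg-12, taken by gene name from a table of 45627 genes, in which all 8 were found. As background, HIM-8 and the ZIM proteins are zinc finger proteins that bind the pairing centres: HIM-8 that of the X, ZIM-1 those of II and III, ZIM-2 that of V and ZIM-3 those of I and IV. CHK-2 is the meiotic kinase that starts pairing and phosphorylates these proteins, and PLK-2 is a polo-like kinase that they recruit. SUN-1 in the inner and ZYG-12 in the outer nuclear membrane form a bridge that couples the pairing centres to dynein, so that chromosomes move along the nuclear envelope until partners meet. SUN-1 and ZYG-12 also attach centrosomes to nuclei in other germline and embryonic cells.

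RNA was sequenced from dissected gonads in 29 libraries that fall into 10 groups, all from worms kept at 24 °C for the experiment. The RNAi experiment used strain DP132, which carries on IV the transgene edIs6, made of unc-119p::unc-119::gfp and of rol-6, and so puts GFP under a promoter known for neurons. RNAi against pgl-1 and glh-1 and their relatives pgl-3 and glh-4, which encode proteins of P granules (the RNA-protein granules of germ cells), was set against empty vector at L4 (the last larval stage), adult Day 1 and adult Day 2. At Day 2 the RNAi gonads were divided into GFP-positive and GFP-negative ones by eye, which gives 7 groups of 3 libraries. The L4 and Day 1 RNAi gonads are labelled GFP-negative. The Day 1 mutant experiment held glh-1(gk100) (strain SS0804, n = 2), pgl-1(ct131) him-3(e1147) (strain SS0002, n = 3) and wild type (strain SS1174, n = 3). The pgl-1 strain also carries a mutation of him-3, a chromosome axis gene, and the effects of its alleles cannot be told apart. RNAi libraries pooled 125 to 150 gonads and control libraries 75 to 100. At L4 it was not known which worms would be sterile, whereas adult RNAi gonads came only from sterile worms. Small RNAi gonads were taken whole but large ones, like the controls, were cut at the bend, so the parts of the gonad sampled can differ between groups.

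The table gives group averages of normalized reads with no error, and the whole reads of every library were worked out from them. Libraries are called a, b and c from the deepest to the shallowest, and depth ran from 1027223 to 9079321 reads on genes. The member with the fewest reads was him-8, with 30 reads in Day 1 RNAi library c, and that with the most was plk-2, with 2404 reads in Day 2 control library a. The 4 RNAi targets fell in all 4 comparisons of RNAi with control; pgl-1, for example, had 18.9, 161 and 8.90 normalized reads in L4 RNAi gonads, against 2223, 2648 and 2299 in L4 controls. Library b of L4 RNAi kept the most reads of all 4 targets. In the pgl-1 mutant, pgl-1 had 131, 122 and 308 normalized reads, against 1803, 2339 and 1113 in wild type. In the libraries labelled glh-1(gk100), glh-1 had 1942 and 2311 normalized reads, against 1104, 2218 and 954 in wild type (log2 fold change 0.54, adjusted p = 0.32 in the authors' deposited table). The labels do not say which part of glh-1 the allele changes, so a total over the gene does not check that label. All 6 germline markers had reads in every group, as the tissue label asks.

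In the reference annotation (WBcel235, used for names, neighbours and exon lengths, since the sources used here do not give the build of the files), zim-1, zim-2, zim-3 and him-8 are consecutive protein-coding genes on the same strand of chromosome IV. The ends of zim-1 and zim-2 overlap on that strand, and zim-1 also spans a pair of pseudogenes, so reads there could be assigned to either gene. The kinase genes lie on chromosome V (chk-2) and chromosome I (plk-2). An ncRNA gene lies on the other strand within chk-2, and the library kit does not mark strand, so its reads cannot be told from those of chk-2. The genes of the bridge lie on chromosome V (sun-1) and chromosome II (zyg-12). PLK-2 has a close relative in PLK-1, and the sources used here do not say how reads shared by such relatives were counted. In the authors' categories, 5 of the 8 (him-8, zim-1, zim-3, plk-2 and sun-1) were germline-enriched and none was germline-specific.

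In control gonads the 8 genes were all well detected, and their levels per kilobase of exon set plk-2 and sun-1 at the top. At Day 2, plk-2 had 434 ± 35 normalized reads per kb and sun-1 362 ± 21, zyg-12 248 ± 20, zim-1 205 ± 31 and chk-2 160.1 ± 2.7 (SD, n = 3). Below them came him-8 with 148 ± 38, zim-3 with 145 ± 27 and zim-2 with 128 ± 35 normalized reads per kb (SD, n = 3). The libraries of plk-2, sun-1 and zyg-12 did not overlap with each other on this scale, those of zyg-12 and zim-1 did, and chk-2, him-8, zim-3 and zim-2 could not be ordered beyond their spread. At L4 the order differed in the middle: chk-2 stood at 175 ± 14 normalized reads per kb, above zim-1 at 130 ± 22, zim-3 at 109.9 ± 17, him-8 at 91.6 ± 6.3 and zim-2 at 80.3 ± 5.1 (SD, n = 3).

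Between the control stages no gene passed the test. The Day 1 average was 154.7 percent of the L4 average for him-8, 144 percent for zim-2, 140.4 percent for zim-1 and 129 percent for sun-1, and it was 84.1 percent for chk-2. In a limma voom fit to the recovered reads, 0 of 8 were called at an adjusted p below 0.05, with 6 of 8 at an unadjusted p below 0.05, while 20.9 percent of 23460 genes were called in either direction and 5.47 percent higher. An unadjusted p below 0.05 was found for 7292 of the 23460 genes. Of the 8, the largest difference was that of him-8, with a log2 fold change of 0.64 ± 0.25 (SE, adjusted p = 0.080), and the closest to the threshold was zim-1, with 0.60 ± 0.21 (SE, adjusted p = 0.052). The count of calls among the 8 depends on the fit: 3 of them were called higher with TMM factors, and 5 with quality weights per library or with only the groups compared in the fit. Of all 23460 genes, 1918 were called higher with TMM factors and 2440 with quality weights. With only the groups compared, 1706 of 19754 genes were. From Day 1 to Day 2 the averages of all 8 lay between 102.6 and 112 percent of Day 1, none was called by limma voom, and 0.00853 percent of all genes were.

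**Figure D1:**
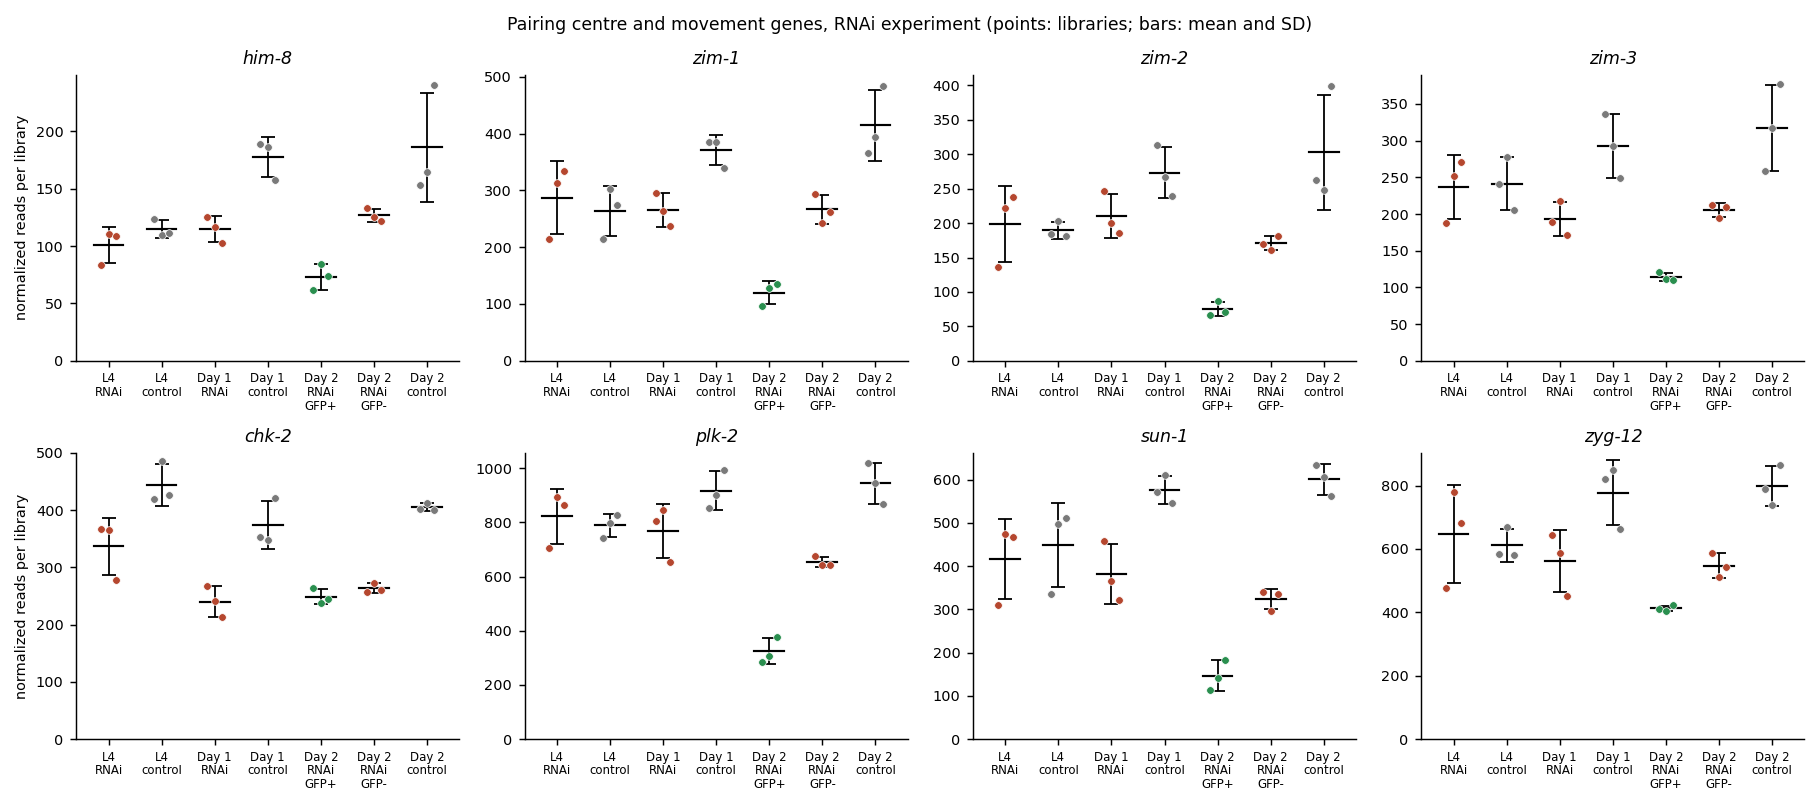
Normalized reads per library (vertical axis, from 0) of each of the 8 genes in the 7 groups of the RNAi experiment, with points for libraries (red, RNAi; green, GFP-positive RNAi; grey, control) and bars for the mean and SD of 3 libraries. In 7 of the 8 panels the GFP-positive group is the lowest of the 7, and in the chk-2 panel it lies level with the other adult RNAi groups.

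At L4, no difference between RNAi and control gonads passed the deposited test for any of the 8 genes. Their averages in RNAi gonads ran from 75.7 percent (chk-2) to 109 percent (zim-1) of control, and 0 of 8 were called in the authors' deposited table, where every adjusted p was 0.99998 and 0.201 percent of 10924 genes were called in either direction and 0.0824 percent lower. The deposited log2 fold changes had a median of 0.05 over the 8 genes and of 0.01 over all genes tested. They understate some changes at L4: that of the target pgl-1 is only -1.44. In a limma voom fit 0 of 8 were called as well, where 0.0298 percent of genes were, with 1 of 8 (chk-2) at an unadjusted p below 0.05. Of all 23460 genes in that fit, 979 had an unadjusted p below 0.05.

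Among the 8 genes chk-2 had the largest difference at L4. It had 366, 365 and 278 normalized reads in L4 RNAi gonads, against 419.6, 486 and 427 in controls, a log2 fold change of -0.33 in the deposited table and of -0.35 ± 0.14 with limma voom (SE, adjusted p = 0.86). All RNAi libraries lay below all controls for chk-2 alone among the 8, where 4.67 percent of all genes tested did so. The other 7 overlapped between the groups: sun-1 had 417 ± 93 normalized reads in RNAi gonads and 448 ± 97 in controls, and him-8 had 101 ± 15 in RNAi gonads and 115 ± 7.8 in controls (SD, n = 3 each). The same held for zim-1, with 287 ± 64 in RNAi gonads and 264 ± 45 in controls, for zim-2, with 199 ± 55 and 189 ± 12 in these groups, and for zim-3, with 237 ± 44 and 241 ± 37. The averages of plk-2 were 822 ± 101 normalized reads in RNAi gonads and 789.9 ± 42 in controls, and those of zyg-12 were 646 ± 154 in RNAi gonads and 611 ± 51 in controls.

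RNAi library a at L4 stood apart from the other two. For 7 of the 8 genes it was the lowest of its group, chk-2 being the exception, and 21.8 percent of its reads were on germline-enriched genes, against 31.8 and 31.6 percent in libraries b and c. Its oocyte markers summed to 6006 normalized reads, where the highest of the group reached 22615. None of the 8 genes was called at L4 by limma voom when it, or any other library of the comparison, was left out. Over all genes the refit called 0 higher and 7 lower with every library, against 96 higher and 556 lower without this one.

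At Day 1, the first adult stage, most of the machinery was lower after RNAi. By the deposited values, 6 of the 8 fell (him-8, zim-1, zim-3, chk-2, sun-1 and zyg-12), where 10.4 percent of 12910 genes were lower, and the averages stood at 64.2 to 83.8 percent of control. The median deposited log2 fold change of the 8 was -0.58, beside 0.26 over all genes tested and -0.40 over the authors' germline-enriched genes, of which 33.5 percent were called lower. Over the authors' germline-specific genes, which include none of the 8, the median was -0.58, and 44.4 percent were called lower. In bulk gonads, fewer germ cells and less RNA per germ cell cannot be told apart, here and in all comparisons that follow.

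Of the pairing centre genes, him-8 had 126, 116 and 103 normalized reads in Day 1 RNAi gonads, against 189, 187 and 158 in controls (deposited log2 fold change -0.67, adjusted p = 0.0395). For zim-1 there were 295, 264 and 237 normalized reads in RNAi gonads, against 385, 386 and 339.9 in controls (-0.53, adjusted p = 0.0303). For zim-3 there were 189, 218 and 172 in RNAi gonads, against 336, 292 and 249 in controls (-0.66, adjusted p = 0.0208). In these 3 genes all RNAi libraries lay below all controls. For zim-2, with 247, 200.4 and 185 in RNAi gonads against 313, 266 and 239.7 in controls, the deepest RNAi library overlapped the shallowest control, and the difference of -0.43 did not pass (adjusted p = 0.155).

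Among the kinases at Day 1, chk-2 had 267, 241 and 213 normalized reads in RNAi gonads, against 353, 347 and 422 in controls (deposited log2 fold change -0.66, adjusted p = 0.00519). The levels of plk-2 were 806, 844 and 655 in RNAi gonads, against 854, 903 and 995 in controls, with the smallest difference of the 8 (-0.30, adjusted p = 0.133). In the bridge, sun-1 had 458, 366 and 323 in RNAi gonads, against 571, 610.0 and 546 in controls (-0.63, adjusted p = 0.00509), and zyg-12 had 645, 588 and 453, against 821, 850.3 and 662 in controls (-0.52, adjusted p = 0.0254). No RNAi library of chk-2, plk-2, sun-1 or zyg-12 reached the lowest control. In all, 7 of 8 genes had every RNAi library below every control, where 18.2 percent of all genes tested did.

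These Day 1 calls lay near the threshold. In the limma voom refit 4 of the 8 were called lower (zim-3, chk-2, sun-1 and zyg-12), where 4.21 percent of genes were, and 0 were called without RNAi library b, 1 without RNAi library c, control library a or control library b, 3 without RNAi library a and 5 without control library c. Without the shallowest library of both groups, 2 were called. Over all genes the refit called 987 lower with every library. It called 401 without RNAi library b, 660 without RNAi library c, 340 without control library a and 673 without control library b. There were 811 without RNAi library a, 1256 without control library c and 822 without the shallowest library of both groups. Markers of other cells moved in the same comparison: the germline markers other than the target glh-1 summed to 5230 to 6545 normalized reads in RNAi gonads and 8190.1 to 8603 in controls, with 5 of 5 detected in both. The 6 oocyte markers summed to 15747 to 25904 normalized reads in RNAi gonads and 35527 to 39542 in controls, and all 6 were called lower. The 6 intestine markers summed to 54504 to 209682 in RNAi gonads and 24455 to 48075 in controls, with 5 of 6 called higher, and the 5 sheath and distal tip markers to 568 to 864 and 145 to 276 in these groups, with 4 of 5 called higher. Of the 6 sperm markers, msp-3 and msp-57 were at 0 in the Day 1 controls and the list summed to 909.5 to 2174 in RNAi gonads, against 1.68 to 30.3 in controls. The part of these in the lower levels of the 8 genes was not tested.

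At Day 2 all 8 genes were lower in both kinds of RNAi gonad, with visible GFP and without. In GFP-positive gonads the averages stood at 24.3 percent (sun-1) to 61.3 percent (chk-2) of control, and 8 of 8 were called lower in the deposited table, where 23.5 percent of 20325 genes were. In GFP-negative gonads they stood at 54 to 69.4 percent of control, with 8 of 8 called lower where 21.5 percent of 18817 genes were, at adjusted p-values no higher than 0.000502. In both comparisons every RNAi library lay below every control for 8 of 8 genes, where 19 percent of genes did so in GFP-positive and 19.5 percent in GFP-negative gonads. These comparisons share their control libraries. The deposited log2 fold changes lie below the log2 ratios of the deposited averages. The median of their difference over genes with averages of at least 100 was -0.46 for GFP-positive and -0.19 for GFP-negative gonads against control, and -0.25 for GFP-positive against GFP-negative gonads, so a percentage of control, which comes from the averages, shows a smaller fall than the deposited fold change.

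Of the pairing centre genes at Day 2, zim-2 had 66.3, 86.2 and 71.4 normalized reads in GFP-positive and 169.8, 161 and 181 in GFP-negative gonads, against 262, 247 and 399 in controls. Its deposited log2 fold changes over control were -2.47 (adjusted p = 8.67e-29) in GFP-positive and -1.01 (adjusted p = 1.53e-06) in GFP-negative gonads, and the 3 groups did not overlap. The levels of zim-1 were 96.4, 129 and 135 in GFP-positive and 294, 243 and 262 in GFP-negative gonads, against 366, 393 and 484 in controls (-2.25 and -0.82 over control). This gene, too, fell into 3 separate ranges. The levels of zim-3 were 121, 111 and 110.2 in GFP-positive and 213, 195 and 210.0 in GFP-negative gonads, against 259, 317 and 377 in controls (-1.93 and -0.81). The levels of him-8 were 61.5, 84 and 73.5 in GFP-positive and 133, 125 and 122 in GFP-negative gonads, against 153, 165 and 241 in controls (-1.81 and -0.73). Both zim-3 and him-8 had 3 separate ranges as well. Control library c was the highest of its group for all 4 of these neighbouring genes, and the lowest for plk-2, sun-1 and chk-2. Without it, limma voom called 8 of 8 genes lower in GFP-positive gonads (15.9 percent of genes with all libraries) and 7 of 8 in GFP-negative gonads (13.3 percent), him-8 being lost. Of all 23459 genes in the fit without it, 3636 and 2882 were called lower in the same order.

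The kinases parted at Day 2. The levels of plk-2 were 285, 308 and 377 normalized reads in GFP-positive and 677, 643 and 645 in GFP-negative gonads, against 1020.0, 944 and 868 in controls (deposited log2 fold changes over control -2.01 and -0.72). The levels of chk-2 were 263, 238 and 245 in GFP-positive and 257, 273 and 260.5 in GFP-negative gonads, against 403, 413 and 400.2 in controls (-1.17 and -0.81). Thus plk-2 had 3 separate ranges, while the chk-2 libraries of the GFP-positive and GFP-negative gonads overlapped and both groups lay below the controls.

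In the bridge, sun-1 had the largest deposited change of the 8 in both Day 2 comparisons with control. Its levels were 113, 142 and 184 normalized reads in GFP-positive and 341, 297 and 334 in GFP-negative gonads, against 633, 605 and 563 in controls (deposited log2 fold changes -2.50, adjusted p = 1.69e-36, and -1.08, adjusted p = 5.37e-14). Those of zyg-12 were 411, 403 and 422 in GFP-positive and 589, 510.1 and 541 in GFP-negative gonads, against 788, 739.7 and 865 in controls (-1.41 and -0.73). For both genes the GFP-positive libraries lay below the GFP-negative ones, and these below the controls.

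Set directly against the GFP-negative gonads, GFP-positive gonads had lower levels of 8 of 8 genes in the deposited table, where 18.6 percent of 16511 genes were lower. The log2 fold changes were -1.42 for zim-2, -1.38 for zim-1 and for sun-1, -1.26 for plk-2, -1.09 for zim-3 and -1.03 for him-8, at 43.7 to 57.5 percent of the GFP-negative average. That of zyg-12 was -0.66 (75.4 percent) and that of chk-2 was -0.33 (94.3 percent, adjusted p = 0.0459). For 7 of 8, all but chk-2, no GFP-positive library reached the lowest GFP-negative one, where 16.6 percent of all genes tested showed this. In the limma voom refit 7 of 8 were called lower, where 6.13 percent of genes were. The call of chk-2 was lost there, where its log2 fold change was -0.08 ± 0.10 (SE, adjusted p = 0.72), with adjusted p-values of 0.258 to 0.912 over all other fits tried, and the zyg-12 call was lost when GFP-negative library a or c or GFP-positive library a or b was left out. The median over the 8 genes was -1.17, beside 0.04 over all genes tested and -0.57 over germline-enriched genes, of which 69.3 percent were called lower. Over germline-specific genes the median was -1.18, and 85.8 percent were called lower.

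**Figure D2:**
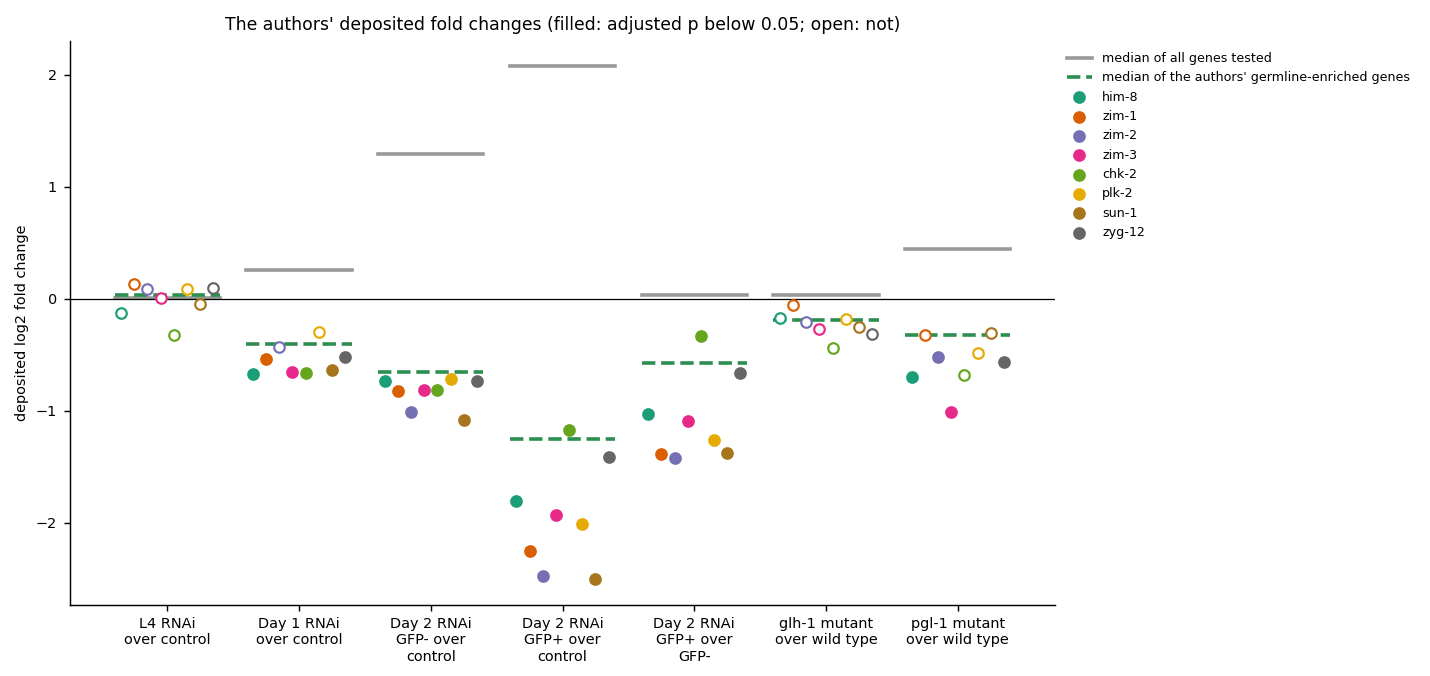
The authors' deposited log2 fold changes (vertical axis) of the 8 genes in the 7 deposited comparisons, filled where the adjusted p was below 0.05 and open where not, with the median of all genes tested (grey line) and of the authors' germline-enriched genes (dashed green line). The 8 genes lie between -0.33 and 0.13 at L4, between -0.67 and -0.30 at Day 1, and between -2.50 and -1.17 in GFP-positive gonads at Day 2, where chk-2 alone lies above the germline-enriched median of -1.25. The median of germline-specific genes in that comparison, which is not drawn, was -2.17.

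Marker genes moved with these levels at Day 2. The germline markers other than glh-1, 5 of 5 detected in each group, summed to 2244 to 3078 normalized reads in GFP-positive and 4475 to 5299.7 in GFP-negative gonads, against 8732 to 8902 in controls. The 6 oocyte markers summed to 5223 to 8311 normalized reads in GFP-positive and 16946 to 19404 in GFP-negative gonads, against 34447 to 45613 in controls. The 6 neuron markers, which include unc-119, the gene of the reporter, summed to 3642 to 4460.4 in GFP-positive and 1207 to 1579.7 in GFP-negative gonads, against 409 to 484 in controls. The 5 sheath and distal tip markers summed to 1344 to 1425 in GFP-positive and 1188 to 1605 in GFP-negative gonads, against 133 to 159 in controls, and the 6 intestine markers to 141872 to 189691, 101207 to 132100.0 and 19059 to 31607 in the same order. Because the gonads were divided by a reporter of unc-119, the neuron sums are not independent of that division. By these sums the GFP-positive group had the least germline and the most neuron signal, while its sheath sums overlapped with those of the GFP-negative group. The part of these in the lower levels of the 8 genes was not tested.

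Ratios within a library do not depend on the scaling between libraries. Reads on germline-enriched genes made up 17.7 to 19.2 percent of all reads on genes in GFP-positive and 26.1 to 28 percent in GFP-negative gonads, against 34.5 to 37.6 percent in Day 2 controls. Per 10000 of these germline-enriched reads, the 8 genes together had 20.3, 20.8 and 21.6 reads in GFP-positive and 29.7, 27.1 and 26.9 in GFP-negative gonads, against 29.3, 28.9 and 31.8 in Day 2 controls. The other groups of this experiment ran from 26.4 (Day 1 RNAi library c) to 30.7 (Day 1 control library b), so the GFP-positive libraries were below all others by this measure, while GFP-negative gonads overlapped with their controls. This fall is not particular to the 8 genes. In GFP-positive against GFP-negative gonads their median deposited log2 fold change of -1.17 was near the -1.18 of germline-specific genes, while that of germline-enriched genes was -0.57. A ratio to germline-specific reads is not given here.

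The makeup of the machinery also differed in GFP-positive gonads. The share of chk-2 in the reads of the 8 genes was 18.6, 15.8 and 15.1 percent in GFP-positive and 9.60, 11.2 and 10.2 percent in GFP-negative gonads, against 10.4, 10.8 and 9.53 percent in Day 2 controls. The ratio of plk-2 to chk-2 reads was 1.08, 1.30 and 1.54 in GFP-positive and 2.64, 2.35 and 2.47 in GFP-negative gonads, against 2.53, 2.29 and 2.17 in Day 2 controls. The ratio of sun-1 to zyg-12 reads, the partners of the bridge, was 0.274, 0.353 and 0.436 in GFP-positive and 0.580, 0.582 and 0.618 in GFP-negative gonads, against 0.803, 0.818 and 0.651 in Day 2 controls. GFP-positive libraries lay apart from both other Day 2 groups in all 3 measures, and chk-2 enters both its share and the ratio to plk-2. Outside Day 2, the nearest values were a chk-2 share of 14.7 percent and a plk-2 to chk-2 ratio of 1.64, both in L4 libraries. For sun-1 to zyg-12 it was 0.498, in wild-type library b. Of the 8, zim-2, chk-2 and zyg-12 are outside the authors' germline-enriched category. Soma-specific genes took 7.64 to 8.63 percent of reads in GFP-positive and 5.07 to 5.54 percent in GFP-negative gonads, against 3.92 to 4.09 percent in Day 2 controls. Their part, and that of the ncRNA gene within chk-2, was not tested. The 4 neighbouring genes on chromosome IV took 24.3, 27.3 and 24.1 percent of the 8 genes' reads in GFP-positive and 30.3, 29.6 and 30.3 percent in GFP-negative gonads, against 26.8, 29.3 and 35.8 percent in controls, so that the first and last group overlapped. These ratios were chosen after the values had been seen and are given as a description, since 3 libraries against 3 cannot give an exact two-sided permutation p below 0.10.

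**Figure D3:**
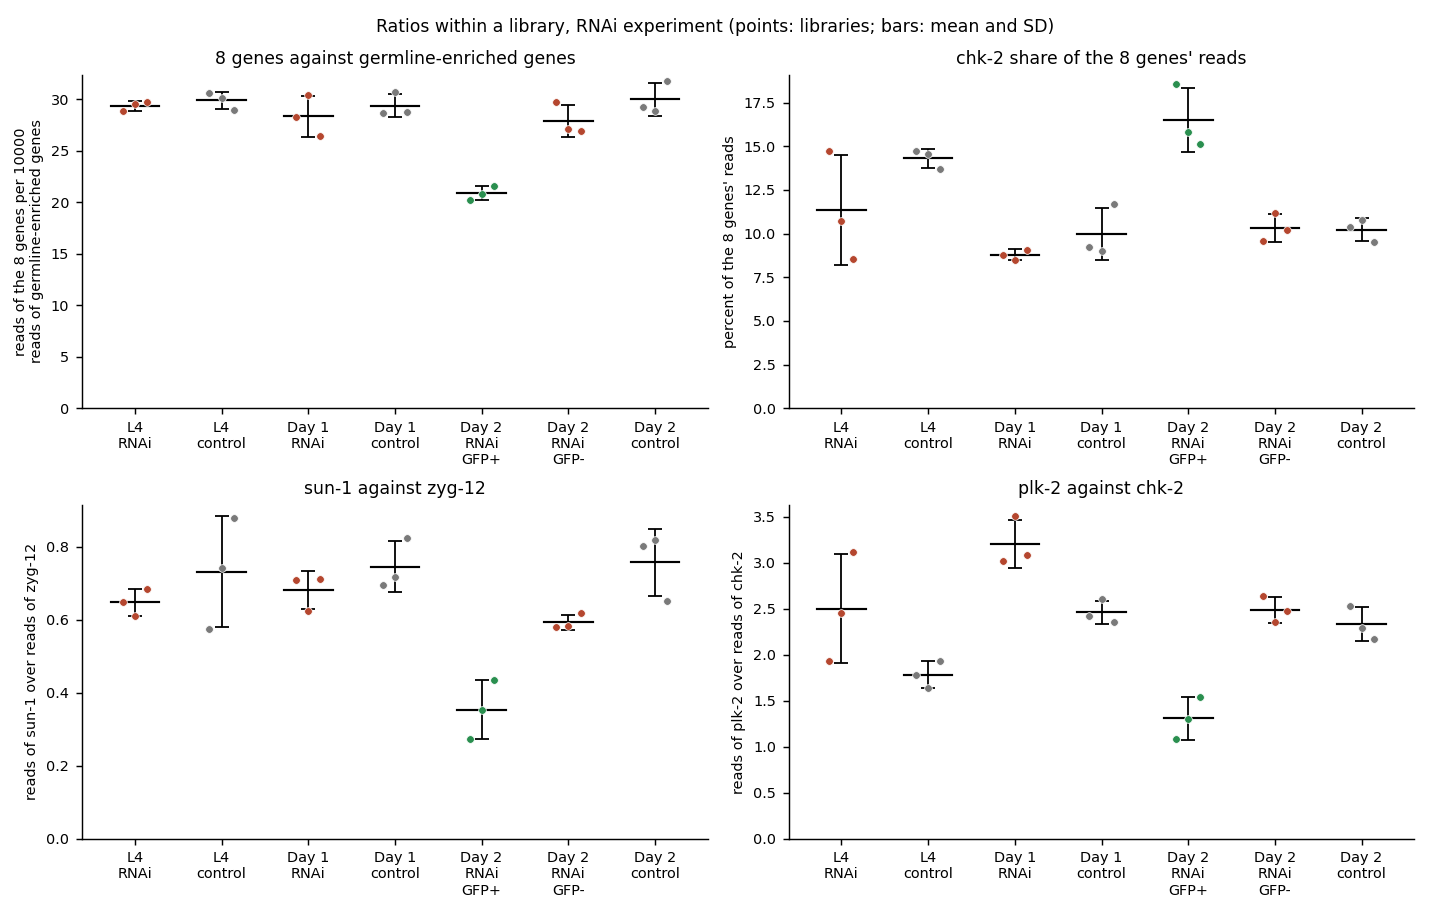
Ratios within each library of the RNAi experiment, with points for libraries and bars for the mean and SD of 3: reads of the 8 genes per 10000 germline-enriched reads, the percent of the 8 genes' reads on chk-2, and the ratios of sun-1 to zyg-12 and of plk-2 to chk-2 reads. The GFP-positive group lies lowest in the first panel (20.3 to 21.6), highest in the second (15.1 to 18.6) and lowest in both ratios, 0.274 to 0.436 and 1.08 to 1.54.

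The effects of RNAi at different stages were compared as differences of log2 fold changes with limma voom. Day 2 GFP-positive gonads differ from Day 1 RNAi gonads, which are labelled GFP-negative, in GFP status as well as in stage. The part of each cannot be told apart in a comparison of these groups. Between L4 and Day 1, 0 of 8 differences passed, with 0 of 8 at an unadjusted p below 0.05, where 4.60 percent of genes were called. Of all 23460 genes, 4251 had an unadjusted p below 0.05 there. The differences of the 8 ran from -0.60 ± 0.30 (zim-1) to -0.18 ± 0.19 (chk-2, SE). Between Day 1 and Day 2 GFP-negative gonads, 0 of 8 passed, with plk-2 alone at an unadjusted p below 0.05 (-0.37 ± 0.14, SE, adjusted p = 0.65), where 0.00426 percent of genes were called. In that test 1606 of 23460 genes had an unadjusted p below 0.05. Between Day 1 and Day 2 GFP-positive gonads, 5 of 8 were called lower, where 4.97 percent of genes were. The differences were -1.61 ± 0.32 for zim-2, -1.57 ± 0.24 for sun-1, -1.43 ± 0.16 for plk-2, -1.34 ± 0.25 for zim-1 and -0.79 ± 0.25 for zim-3 (SE, adjusted p from 3.48e-05 to 0.0372). For him-8 (-0.70 ± 0.29, adjusted p = 0.104), zyg-12 (-0.49 ± 0.19, adjusted p = 0.083) and chk-2 (-0.16 ± 0.16, adjusted p = 0.57) the differences did not pass. The call of zim-3 rested on single libraries: it was lost when any 1 of 9 libraries was left out (Day 1 control b or c, Day 2 control b or c, Day 1 RNAi a or b, or any GFP-positive library), with adjusted p from 0.0532 to 0.119.

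Within RNAi gonads, 0 of 8 genes were called between Day 1 and L4 (0.345 percent of genes called) or between Day 2 GFP-negative and Day 1 (0.128 percent), with limma voom. At an unadjusted p below 0.05 there was 1 gene of the 8 in each, chk-2 at -0.47 ± 0.14 (SE, adjusted p = 0.18) for Day 1 against L4, and plk-2 at -0.28 ± 0.11 (SE, adjusted p = 0.27) for Day 2 GFP-negative against Day 1. Of all 23460 genes, 2205 and 3586 had such a p in the same order. The Day 1 average of chk-2 in RNAi gonads was 71.3 percent of its L4 average.

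In the mutants, which were normalized apart from the RNAi experiment, the pgl-1 strain had lower levels of part of the machinery and the glh-1 strain passed for none. In the pgl-1 mutant 4 of 8 genes fell in the deposited table (him-8, zim-2, zim-3 and zyg-12), where 8.84 percent of 13469 genes were lower, with a median log2 fold change over the 8 of -0.54, beside 0.45 over all genes tested and -0.33 over germline-enriched genes. Over germline-specific genes the median was -0.43. In the libraries labelled glh-1(gk100), 0 of 8 were called, where 2.47 percent of 9718 genes were lower, and limma voom also called 0, with 0 at an unadjusted p below 0.05, where it called 6.89 percent of genes in either direction. In that refit 3644 of 15189 genes had an unadjusted p below 0.05. The averages of the 8 genes in glh-1(gk100) lay between 72.7 and 96 percent of wild type. These comparisons share the wild-type libraries.

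The gene with the clearest difference in the mutants was zim-3. It had 149, 128 and 130.1 normalized reads in the pgl-1 mutant and 229 and 226 in glh-1(gk100), against 314, 262 and 249 in wild type, and its deposited log2 fold changes were -1.01 (adjusted p = 3.01e-05) and -0.27 (adjusted p = 0.55). No library of one group overlapped with another. Its neighbour him-8 had 135, 78.8 and 103 in the pgl-1 mutant and 162 and 142 in glh-1(gk100), against 178, 175 and 166 in wild type (-0.69, adjusted p = 0.0288, and -0.17). For zim-2 there were 189, 142 and 178 in the pgl-1 mutant and 234 and 182 in glh-1(gk100), against 249.8, 248 and 233 in wild type (-0.52, adjusted p = 0.0427, and -0.21). For both genes all pgl-1 mutant libraries lay below wild type, and for him-8 the glh-1(gk100) libraries lay between these groups with no overlap. For zim-1, with 248, 196 and 288 in the pgl-1 mutant and 311 and 271 in glh-1(gk100), against 330.1, 286 and 293 in wild type, the groups overlapped (-0.32, adjusted p = 0.24, and -0.05).

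Of the kinases in the mutants, plk-2 had 429.8, 553 and 539 normalized reads in the pgl-1 mutant and 655 and 582 in glh-1(gk100), against 722, 816 and 582 in wild type (deposited log2 fold changes -0.48, adjusted p = 0.061, and -0.18). The levels of chk-2 were 214, 259 and 185 in the pgl-1 mutant and 269.8 and 244 in glh-1(gk100), against 408, 439 and 213 in wild type (-0.68, adjusted p = 0.056, and -0.43). Wild-type library c was low for chk-2 and overlapped with both mutants. In the bridge, zyg-12 had 406, 421 and 489 in the pgl-1 mutant and 519.7 and 513 in glh-1(gk100), against 673, 646 and 627 in wild type (-0.57, adjusted p = 0.00531, and -0.32), with no overlap between the groups. The levels of sun-1 were 269.5, 319 and 338 in the pgl-1 mutant and 336 and 293 in glh-1(gk100), against 413, 321 and 407 in wild type (-0.30, adjusted p = 0.24, and -0.25), where the ranges overlapped. In all, 5 of 8 genes had every pgl-1 mutant library below every wild-type library (14 percent of all genes tested), and 3 of 8 (him-8, zim-3 and zyg-12) did in glh-1(gk100) (18.7 percent).

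The count for the pgl-1 mutant turned on single libraries. The limma voom refit called 5 (him-8, zim-3, chk-2, plk-2 and zyg-12), where 8.53 percent of genes were lower, and 1 without wild-type library a, 2 without wild-type library b, 3 without mutant library a or c, 4 without mutant library b and 5 without wild-type library c. Over all genes it called 1295 lower with every library. Without wild-type library a, b or c it called 737, 874 or 1354 lower, and without mutant library a, b or c 673, 927 or 1237. Set against glh-1(gk100), 0 of 8 differed in the pgl-1 mutant by limma voom, where 0.309 percent of genes did, with zim-3 alone of the 8 at an unadjusted p below 0.05 (-0.73 ± 0.22, SE, adjusted p = 0.19). Of all 15189 genes, 1853 had an unadjusted p below 0.05 in this comparison. The germline markers other than glh-1 summed to 4201 to 5371 normalized reads in the pgl-1 mutant and 4963 to 5233 in glh-1(gk100), against 6732 to 6895 in wild type, and the oocyte markers to 14844 to 19076, 20868 to 22460.1 and 25389 to 30697 in the same order. Markers of other cells were higher in the pgl-1 mutant. The 6 intestine markers summed to 34258 to 53731 normalized reads in the pgl-1 mutant, against 10119 to 13363 in wild type, where elt-2 was at 0, and all 6 were called higher. The 6 sperm markers summed to 95.8 to 264 in the pgl-1 mutant, against 1.95 to 2.51 in wild type, where msp-57, ssq-2 and gsp-3 were at 0, and 5 of 6 were called higher. For the sheath and distal tip markers the sums were 247 to 531 in the pgl-1 mutant, against 112 to 213 in wild type, with 3 of 5 called higher, and for the neuron markers 519 to 702, against 244 to 339 with rab-3 at 0, with 3 of 6 called higher. In glh-1(gk100) the intestine markers summed to 15523 to 64040 (2 of 6 called higher) and the sperm markers to 25.5 to 76.7 (1 of 4 tested). The part of all these in the lower levels was not tested.

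**Figure D4:**
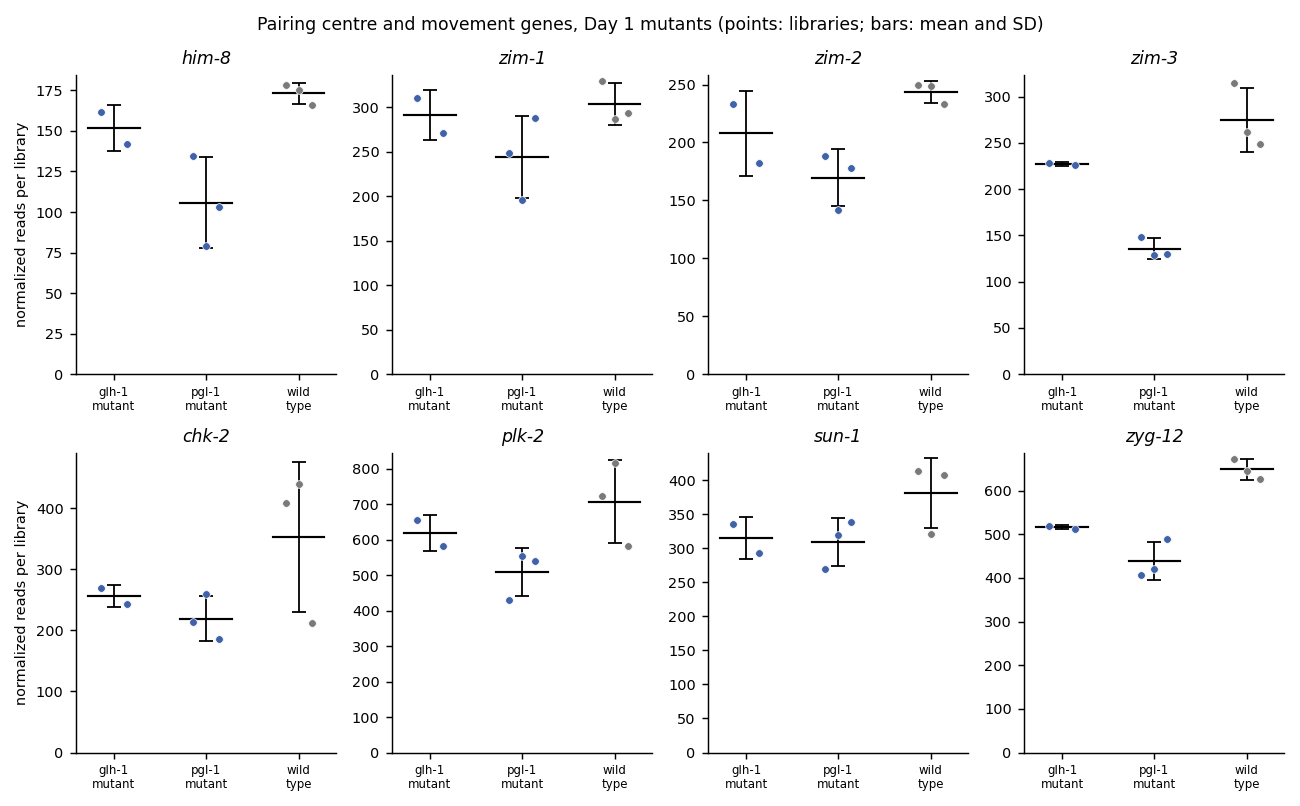
Normalized reads per library (vertical axis, from 0) of the 8 genes in glh-1(gk100), pgl-1(ct131) him-3(e1147) and wild-type gonads at Day 1, with points for libraries and bars for the mean and SD (n = 2, 3 and 3). The him-8, zim-3 and zyg-12 panels show 3 ranges with no overlap, and in the chk-2 panel wild-type library c lies at 213, among the mutants.

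Genes that work with the 8 moved in both directions. Of 26 listed partners (regulators of CHK-2 and of the pairing centres, dynein and its adaptors, and proteins of the nuclear envelope), 0 were called at L4; 9 were lower and 4 higher at Day 1, 18 lower and 4 higher in GFP-positive, and 16 lower and 4 higher in GFP-negative gonads at Day 2. In GFP-positive against GFP-negative gonads 10 were lower and 4 higher, in the pgl-1 mutant 7 lower and 4 higher, and in glh-1(gk100) 0 lower and 1 higher. Of all genes tested, the share higher was 19.4 percent at Day 1, 44.3 percent in GFP-positive and 38.2 percent in GFP-negative gonads over control, 19.4 percent in GFP-positive against GFP-negative gonads, 22.3 percent in the pgl-1 mutant and 6.68 percent in glh-1(gk100). The share lower was 10.4, 23.5, 21.5, 18.6, 8.84 and 2.47 percent in the same 6 comparisons. Their median log2 fold changes were -0.35 at Day 1, -0.83 in GFP-positive and -0.53 in GFP-negative gonads over control.

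The 4 that rose are not specific to meiosis. They were anc-1, a giant KASH protein that anchors nuclei (deposited log2 fold change 2.42 at Day 1, 3.98 in GFP-positive and 3.48 in GFP-negative gonads at Day 2), unc-83, a KASH protein that moves nuclei in somatic cells (1.14, 3.31 and 2.08), unc-84, the somatic SUN protein that binds them (0.83, 1.94 and 1.38), and bicd-1, a dynein adaptor (1.31, 2.90 and 1.91). These genes of somatic bridges were higher in the same comparisons in which sun-1 and zyg-12, the germline bridge, were lower. The sums of somatic markers given above were higher in these groups too, and their part was not tested.

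Among the partners that fell, prom-1, an F-box protein needed for CHK-2 to act and for pairing, had deposited log2 fold changes of -1.08 at Day 1, -2.57 in GFP-positive and -1.19 in GFP-negative gonads. For hal-2, which keeps synapsis between homologous partners, they were -0.91, -2.10 and -1.07, and for its partner hal-3 -2.05 in GFP-positive gonads. The AAA-ATPase gene pch-2, which guards pairing and synapsis, had -0.90 at Day 1, and the dynein light chain gene dlc-1 had -1.15 in GFP-negative gonads. The polo-like kinase gene plk-1, the close relative of plk-2, had -0.54 at Day 1, -1.68 in GFP-positive and -0.90 in GFP-negative gonads; it was named for this likeness after its values were seen. The dynactin genes dnc-1 and dnc-2 and the lamin gene lmn-1, also named after their values were seen, had values between -0.20 and -0.03 in these 3 comparisons and were not called. By the averages, though, they stood at 128.5, 127.5 and 125.7 percent of control in GFP-positive gonads. In that comparison the deposited values lie below the ratios of averages, as given above.

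A list of 12 genes of the steps around pairing was counted beside them, 9 of the chromosome axis and the synaptonemal complex and 3 of meiotic double-strand breaks (dsb-1, dsb-2 and spo-11). Its genes htp-3 and syp-1 are also among the germline markers summed above. Of these 12 genes, 1 was lower at L4, 4 at Day 1, 12 in GFP-positive and 9 in GFP-negative gonads over control, 12 in GFP-positive against GFP-negative gonads, 1 in glh-1(gk100) and 7 in the pgl-1 mutant, and none was higher. Of all genes tested, the share lower was 0.0824 percent at L4 and 10.4, 23.5, 21.5, 18.6, 2.47 and 8.84 percent in the other comparisons in that order. Of germline-enriched genes it was 0.391 percent at L4 and 33.5, 87.8, 77.2, 69.3, 4.47 and 25.6 percent in the others. The gene called at L4 was him-3, which neighbours the RNAi target pgl-1. Its L4 RNAi average was 10.2 percent of control (deposited log2 fold change -2.17), beside 2.64 to 10.9 percent for the 4 RNAi targets. In the adult groups it was 9.55 percent at Day 1, and 7.37 percent in GFP-negative and 2.07 percent in GFP-positive gonads at Day 2. Whether him-3 was lowered by the RNAi itself was not tested, so the RNAi groups differ from control in him-3 as well as in the 4 targets. The calls at Day 1 were him-3, htp-3, syp-4 and dsb-1, and that in glh-1(gk100) was dsb-2, with a deposited log2 fold change of -1.01 (adjusted p = 0.0282). In the pgl-1 mutant they were him-3, htp-1, htp-3, lab-1, syp-4, dsb-1 and dsb-2. The median log2 fold change of this list was -0.52 at Day 1, -2.13 in GFP-positive and -0.86 in GFP-negative gonads, beside -0.58, -1.97 and -0.81 for the 8 pairing and movement genes. Over the authors' germline-specific genes the medians were -0.58, -2.17 and -0.91 in the same order.

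Over the 7 group averages of the RNAi experiment, the mean pattern of the 8 genes was close to that of many others. Pearson's r of a gene's log2 averages to that pattern was at least 0.90 for 1069 of 5279 genes with a mean of at least 100 normalized reads, at least 0.95 for 535 and at least 0.99 for 45. The points share their libraries and the scaling between groups, so r is a description. Within the 8, r to the mean pattern, to which each gene contributes, was 0.994 for sun-1 and for zim-3, 0.987 for zim-1, 0.982 for zim-2, 0.979 for zyg-12, 0.969 for plk-2 and 0.909 for him-8, and 0.710 for chk-2. Between pairs it was highest for zim-1 and zim-2, 0.99, which overlap, and lowest for him-8 and chk-2, 0.553. The 5 other genes most like the pattern were msh-2, which encodes a mismatch repair protein (r = 0.9996), B0001.7 (0.998), C17H12.13 (0.997), B0304.2 (0.996) and T09B4.2 (0.996). All 5 were in the authors' germline-enriched category, and 0 of them were among the 5 most alike by Spearman's rho. The first of them, msh-2, averaged 303 normalized reads in GFP-positive and 511 in GFP-negative gonads, against 795 in Day 2 controls.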

How the data were processed

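RNA of 29 dissected gonad libraries had been depleted of ribosomal RNA, made into libraries with a kit that does not mark strand and sequenced on HiSeq machines of several models, per the labels. The authors used TopHat2 and DESeq2, per the submitters' processing notes; the sources used here give no version, build, annotation or read counter. Per the file headers, the deposited table holds log2 fold changes, Benjamini-Hochberg adjusted p-values and mean expression (a score: a mean of normalized reads over the libraries compared) for 7 comparisons, marks 5 gene categories with 0 or 1, and gives the group averages, a signal of normalized reads, for the RNAi and mutant experiments apart. The sources used here do not say how the categories were chosen.

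The deposited adjusted p (threshold 0.05) was the main test. Because averages of 2 or 3 whole numbers over fixed steps have few solutions, each library's whole reads were worked out from the averages, a step chosen after the table was seen. At each gene checked, they returned the deposited mean expression within a relative 1e-06. Replicate numbers stay unknown. Comparisons with no deposited columns, standard errors and alternatives came from limma 3.58.1 (voom, R 4.3.3) on these reads, for genes that averaged 1 or more normalized reads in some group (23460 in the RNAi experiment and 15189 in the mutants), with all groups of an experiment in a fit. Reads were not fitted with a negative binomial model. Both steps were tested on simulated data. Whether replicates were separate cultures is not in the labels, so p-values measure the spread between these libraries, which may be technical.

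The 8 genes and all lists were chosen with earlier results of these data known. The 8 genes are named in every comparison, partners by the largest fold changes (at most 6 per comparison), and the 5 most alike genes by r. Of the 26 partner names, 7 were matched through reference symbols (WBcel235). Alternatives were another threshold, filter, scaling, weighting, pseudocount or set of groups, and leaving out each library. No sequence of the 8 genes is shown.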

Additional observations from a re-analysis of the deposited data

Results flagged for a closer look

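The effect of RNAi differed between Day 2 GFP-positive and Day 1 gonads for 5 of the 8 genes, by the test of the difference itself with limma voom. Of all genes, 4.97 percent were called lower in this test. Between Day 2 GFP-negative and Day 1 gonads 0 of 8 differences passed, where 0.00426 percent of genes were called. Between Day 1 and L4 0 of 8 passed as well, where 4.60 percent of genes were called. In Day 2 GFP-positive gonads compared with Day 1 gonads, the log2 fold change of RNAi over control was lower by a difference of -1.34 for zim-1, -1.61 for zim-2, -0.79 for zim-3, -1.43 for plk-2 and -1.57 for sun-1. The groups of a stage have their own controls. The Day 2 RNAi gonads of this difference were GFP-positive, selected by eye, whereas the Day 1 RNAi gonads are labelled GFP-negative. Stage and GFP status therefore cannot be told apart in this difference. The zim-3 difference passed in some fits only: it was lost when Day 1 control library b or c, Day 2 control library b or c, Day 1 RNAi library a or b, or any GFP-positive library was left out.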

How the results depend on the processing

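The number of genes called lower in Day 1 RNAi gonads was 6 in the deposited table and 2 at an adjusted p below 0.01, and in the refit with limma voom it was 4, or 2 without a filter on low genes, 2 without library c of both groups (an alternative chosen after seeing the data) and 0 to 5 with a library left out. In the pgl-1 mutant it was 4, 2 at the stricter threshold and 1 to 5 with a library left out. Over all genes the refit called 987 lower at Day 1, and 340 to 1256 with a library left out. It called 822 of 28958 genes lower there without the filter, and 822 of 19737 without library c of both groups. For the pgl-1 mutant it called 1295 lower, and 673 to 1354 with a library left out. The number of all genes called at the stricter threshold is not given here. The number for the 8 genes stayed at 8 in GFP-positive gonads in all fits run. With a library left out it was 7 to 8 in GFP-negative gonads and 6 to 7 in GFP-positive against GFP-negative gonads. Over all genes the refit called 3729 lower in GFP-positive gonads, and 3388 to 4430 in the other fits. In GFP-negative gonads it called 3111, and 2524 to 2891 with a library left out. For GFP-positive against GFP-negative gonads it called 1438, and 827 to 1299 with a library left out. At L4, 1 of the 8 genes was called lower with quality weights, where 597 of 23460 genes were. For Day 1 against L4 controls, 0 genes were called in either direction; higher calls numbered 3 with TMM factors, 5 with quality weights, 5 with only the groups compared, 3 without library c of both Day 1 groups and 0 to 2 with a library left out, and 1 gene was called lower with quality weights or without those libraries. Over all genes, where 3620 were lower, these 2 fits called 13314 and 7547 lower. Higher calls over all genes were 1283 in the main fit, 1918 with TMM factors and 2440 with quality weights. There were 1706 with only the groups compared, 1707 without library c of both Day 1 groups and 64 to 1485 with a library left out. The difference of the RNAi effect between L4 and Day 1 gave 1 lower call with quality weights and 0 to 1 with a library left out, and that between Day 1 and GFP-positive gonads gave 4 to 6 with a library left out. Over all genes the first of these gave 33 lower calls in the main fit, 562 with quality weights and 1 to 688 with a library left out. The second gave 1167, and 506 to 1314 with a library left out. The cause of these changes was not tested, other than that leaving out libraries leaves fewer samples. Of 616 alternative values of single genes, 531 kept their side of the threshold, 69 lost it, 16 gained it and 0 turned their direction. By Spearman's rho, 0 of the 5 most alike genes were the same, and 4 were with a minimum level of 10. No paired analysis was possible because the columns of averages carry no replicate numbers. Counting error limits him-8 most in Day 1 RNAi library c, where it has 30 reads.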
